A study of Mus musculus with 11 samples.

Results

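Cytochrome P450 enzymes are haem proteins that insert an oxygen atom into lipids, steroids, bile acids, vitamins, drugs and carcinogens. Families are numbered by sequence. The enzymes of families 2 and 3 mostly oxidise drugs and other foreign compounds, those of family 4 mostly hydroxylate fatty acids, and many of the higher-numbered families each carry out a fixed step of bile acid, steroid or vitamin D metabolism. In the adult mouse the liver is the best-known site of families 2, 3 and 4, and some members belong to lung, kidney, gut, nose or skin. The genes described here are those of families 2 to 46, taken as every gene whose array annotation has the symbol Cyp followed by a family number, 1 letter and a number. Cyp1, Cyp26 and Cyp51 genes were left out, as were symbols with a further letter. This gave 71 genes out of 19623 measured in the series, and 59 of them were measured in both groups of tumours.

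The tumours were mammary tumours of female MMTV-Neu+/- mice, in which the mouse mammary tumour virus promoter drives the rat form of the receptor gene Erbb2 in the mammary epithelium. There were 5 from mice given dimethylbenzanthracene (DMBA), a polycyclic hydrocarbon carcinogen, and 6 from untreated mice of the same genotype. Each array compared tumour RNA with 1 common RNA from whole mouse. DMBA dose, tumour age and mouse strain are not given in the sources used here, and samples of p53 knockout mice or of rexinoid treatment, which the series title names, were not analysed here. Nothing in the labels says that tumours came from separate mice, so p-values cover the spread among these samples alone, which could be technical. The titles of DMBA tumours 3 and 4 share a number that the labels do not explain, and they were used as separate tumours.

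All values are log2 ratios, as far as can be told of tumour over reference. A dye is labelled for the reference channel, but the tumour channel's dye field names a kit, so the direction is only likely. It was read from organ genes that a whole mouse holds. The median of 10 listed hepatocyte genes, 8 of them measured in DMBA-treated tumours and 9 in untreated tumours, lay between -3.37 and -2.73 on the DMBA arrays and between -3.26 and -2.87 on the untreated arrays. Medians of skeletal muscle genes ran from -4.10 to -2.87 and from -3.85 to -3.01, and those of brain genes from -2.46 to -2.18 and from -2.49 to -1.65. Among 9 markers of luminal mammary epithelium, 8 were above the reference in DMBA-treated tumours and 8 in untreated tumours. No measure of signal over background was used here, so the depth behind the ratios is unknown, and precision is limited by how many arrays there are. A ratio sets a gene against a pool of all tissues, not against normal mammary gland. In bulk tumour RNA, fewer cells of a type and less RNA per cell cannot be told apart.

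Most members stood below the reference in both groups. All such signs rest on the likely direction, and with the ratio turned the members given as lower would be higher and the reverse. In DMBA-treated tumours (n = 5), 47 of 67 members measured were lower and 5 were higher, at an adjusted p under 0.05 in limma's moderated test over all 19087 genes. Of all genes in that table, 31.7% were lower and 26.1% higher. In untreated tumours (n = 6), 41 of 63 members were lower and 6 were higher, beside 32.1% lower and 28.8% higher among all 16887 genes of their table. The median log2 ratio of the members was -1.26 in DMBA-treated tumours and -1.14 in untreated tumours, where the medians over all genes were -0.02 and 0.00. At least 8-fold below the reference were 19 members in DMBA-treated tumours and 12 in untreated tumours. Over all genes, 739 of 19087 and 637 of 16887 were that far below it. No member reached 2-fold above the reference in either group, where 1580 and 1148 of all genes were called at least 2-fold above it. The comparisons share the reference RNA, so the members' values are given for each group side by side and the number called in both is not read as a result.

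The median ratio of the members was below the reference in every tumour. It lay between -1.62 and -1.18 in the 5 DMBA-treated tumours and between -1.54 and -0.95 in the 6 untreated tumours, where the medians over all genes ran from -0.043 to -0.010 and from -0.022 to -0.002. The spread of a single member was near that of other genes, with a median SD of 0.302 in DMBA-treated tumours, against 0.316 over all genes, and of 0.266 in untreated tumours, against 0.277 over all genes. Hepatocyte genes served to read the direction of the ratio, so their low values are not a result. Of markers of other organs that carry these enzymes, 6 of 6 kidney tubule, 4 of 4 lung and 5 of 6 intestinal genes were below the reference in DMBA-treated tumours, and 5 of 5, 5 of 5 and 4 of 6 in untreated tumours. Beside them, 31.7% and 32.1% of all genes were below it in the same order. The part of these organs in the ratios of the members was not tested.

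Family 2 is the largest family here, and its members were nearly all low or near the reference. In DMBA-treated tumours 31 of 37 members were below the reference and 0 above it, with a median of -1.49, and 0 were above it at an unadjusted p under 0.05 in limma. In untreated tumours 24 of 35 were below and 1 above, with a median of -1.59. Of its subfamilies with several members, 2A was the lowest. All 4 members of 2A in DMBA-treated tumours and both measured in untreated tumours were lower, with medians of -3.12 and -4.61. For 2C the counts were 8 of 10 in DMBA-treated tumours and 7 of 9 in untreated tumours, and for 2D they were 7 of 7 and 6 of 8. The 2B subfamily lay nearer the reference, with 3 of 5 members lower in each group and means between -1.45 and -0.10 in DMBA-treated tumours and between -1.24 and 0.04 in untreated tumours. Among all genes, 31.7% were lower in DMBA-treated tumours and 32.1% in untreated tumours, and the subfamily counts rest on few genes. Some genes within 2A, 2B, 2C, 2D, 3A and 4A, such as Cyp2a4 and Cyp2a5, are near-identical copies, so a feature may read a neighbour and the ratio of such a gene is uncertain.

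**Figure D1:**
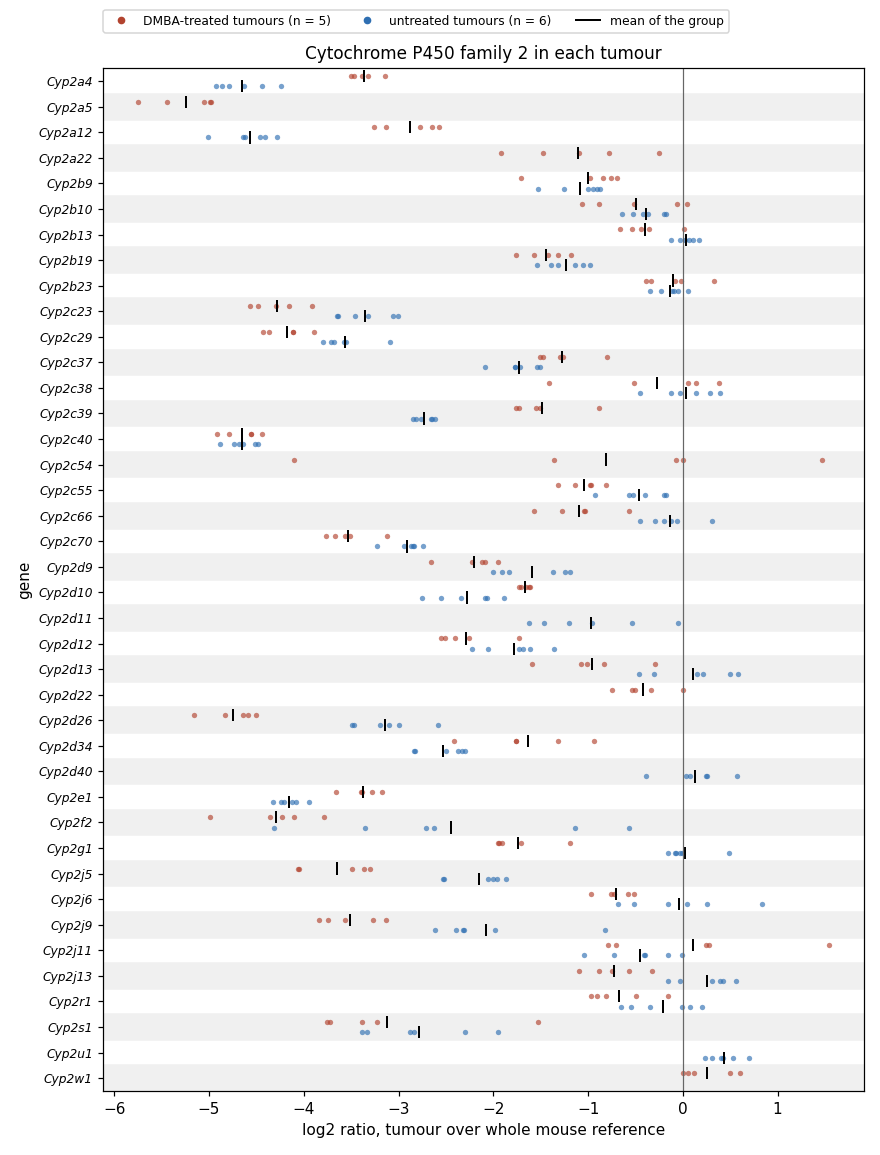
Log2 ratio of tumour over whole mouse reference (horizontal axis) for each family 2 gene (vertical axis) in each tumour. Points are tumours, DMBA-treated (n = 5) above and untreated (n = 6) below in each gene's row, and black bars are group means; most genes lie left of 0, Cyp2a5 farthest, while Cyp2c54 in DMBA-treated tumours and Cyp2f2 in untreated tumours are spread over several units.

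Cyp2a5, the coumarin hydroxylase of mouse liver, was measured only in the table of DMBA-treated tumours. Its log2 ratios there were -5.75, -4.98, -5.44, -4.99 and -5.05 in tumours 1 to 5. All lay far below 0, with a mean of -5.24 ± 0.34 (SD, n = 5), 37.9-fold below the reference (adjusted p = 1.09e-06). Its near copy Cyp2a4, a testosterone hydroxylase, stood at -3.32, -3.15, -3.50, -3.38 and -3.47 in DMBA-treated tumours and between -4.93 and -4.25 in untreated tumours (median -4.71). Their ranges were separate, with means of -3.36 ± 0.14 and -4.65 ± 0.27, but the first averages features at -4.92 and -1.81, of which 1 lay below the untreated mean and 1 above it. Cyp2a12, another steroid hydroxylase of liver, stood at -2.78, -3.26, -3.13, -2.65 and -2.57 in DMBA-treated tumours and between -5.01 and -4.28 in untreated tumours (median -4.54). The untreated tumours were again all lower, at 23.8-fold below the reference in the mean, against 7.35-fold in DMBA-treated tumours.

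Among the 2C enzymes, which make epoxides from arachidonic acid and oxidise drugs, 3 were among the lowest members. Cyp2c40, an arachidonic acid hydroxylase, averaged -4.65 ± 0.20 in DMBA-treated tumours and -4.66 ± 0.15 in untreated tumours. Cyp2c29 averaged -4.18 ± 0.22 in DMBA-treated tumours and -3.57 ± 0.25 in untreated tumours, and Cyp2c23, an arachidonic acid epoxygenase, -4.28 ± 0.26 and -3.35 ± 0.28 in the same order. All of these means were below the reference, with adjusted p from 4.41e-10 to 1.12e-06. Cyp2c54 had the widest spread of all members in DMBA-treated tumours. Its values were -4.10, 1.46, -1.36, -0.07 and 0.00, so tumour 1 lay far below the reference and tumour 2 above it, and the mean of -0.81 ± 2.09 did not pass the test (adjusted p = 0.374). The value of 0.00 in tumour 5 is an exact zero in the deposited table.

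Of the remaining low members of family 2, Cyp2d26 stood at -4.64, -4.51, -4.59, -5.16 and -4.83 in DMBA-treated tumours and between -3.49 and -2.59 in untreated tumours (median -3.15). The DMBA-treated tumours were all lower, at 26.9-fold below the reference in the mean, against 8.82-fold in untreated tumours. That gap rests on 1 feature, since the untreated mean averages features at -1.44 and -4.84, the second close to the DMBA-treated mean of -4.75. Cyp2e1, which oxidises ethanol and other small molecules in liver, stood at -3.39, -3.18, -3.66, -3.28 and -3.39 in DMBA-treated tumours and between -4.33 and -3.95 in untreated tumours (median -4.17). Every DMBA-treated tumour was higher, although the means, -3.38 ± 0.18 and -4.16 ± 0.13, were less than 1 apart. Cyp2d11, measured only in the untreated table, ranged from -1.63 to -0.06 there, with a mean of -0.97 ± 0.59 (adjusted p = 0.00205).

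Cyp2f2 is the naphthalene-oxidising enzyme of the club cells that line mouse airways. It stood at -4.36, -3.79, -4.23, -4.99 and -4.11 in DMBA-treated tumours, a compact range. In untreated tumours it ran from -4.32 to -0.56 (median -2.67), so that 1 tumour reached the level of the DMBA-treated tumours and the rest lay above them. The mean was -4.29 ± 0.44 in DMBA-treated tumours (adjusted p = 2.42e-06) and -2.45 ± 1.39 in untreated tumours (adjusted p = 0.000939). The array medians of the lung markers ran from -2.65 to -2.25 in DMBA-treated tumours (4 measured) and from -3.10 to -2.48 in untreated tumours (5 measured), and their part in the spread of Cyp2f2 was not tested.

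Cyp2s1, an epithelial enzyme of airway, gut and skin whose human and mouse forms are known to be induced through the aryl hydrocarbon receptor that DMBA binds, was below the reference in every tumour. Its values were -3.76, -3.23, -3.73, -3.39 and -1.53 in DMBA-treated tumours and -3.39 to -1.95 in untreated tumours (median -2.86). DMBA tumour 5 was higher than the others of its group. The means, -3.12 ± 0.92 and -2.78 ± 0.57, were 8.72-fold and 6.89-fold below the reference (adjusted p = 0.00021 and 1.34e-06), and the groups overlapped.

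The 2J subfamily makes epoxides from arachidonic acid outside as well as inside the liver. It had 4 of 5 members below the reference in DMBA-treated tumours and 3 of 5 in untreated tumours, beside 31.7% and 32.1% of all genes. These counts rest on few genes, and the members differed widely. Cyp2j5, found in kidney and liver, stood at -3.49, -3.37, -4.05, -3.30 and -4.06 in DMBA-treated tumours and between -2.53 and -1.87 in untreated tumours (median -2.03). Cyp2j9, known from brain, stood at -3.84, -3.74, -3.28, -3.13 and -3.57 in DMBA-treated tumours and between -2.62 and -0.82 in untreated tumours (median -2.32). Both were lower in every DMBA-treated tumour than in any untreated one. Cyp2j5 was 12.6-fold below the reference in DMBA-treated tumours and 4.46-fold in untreated tumours, and Cyp2j9 11.4-fold and 4.21-fold. Cyp2j11 was spread on both sides of the reference, at 1.54, -0.79, 0.28, 0.24 and -0.71 in DMBA-treated tumours and between -1.04 and -0.01 in untreated tumours. That spread came from 1 of its 2 DMBA features, which ran from -2.03 to 2.71, while the other stayed between -0.01 and 0.45. The mean of 0.11 ± 0.95 in DMBA-treated tumours did not pass the test (adjusted p = 0.801), and the mean of -0.46 ± 0.38 in untreated tumours did (adjusted p = 0.0172) but not without untreated tumour 3 (-0.40, adjusted p = 0.0508).

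Cyp2g1, an enzyme of the olfactory lining of the nose, stood at -1.91, -1.71, -1.94, -1.19 and -1.95 in DMBA-treated tumours and between -0.16 and 0.49 in untreated tumours (median -0.05). The averaged values did not overlap, but 1 of the DMBA features did, at -1.20 to 0.64, while the other ran from -3.03 to -2.54. The DMBA-treated mean was -1.74 ± 0.32 (adjusted p = 5.5e-05) and the untreated mean 0.02 ± 0.23 (adjusted p = 0.858), and the difference itself was not tested. The member of family 2 above the reference in untreated tumours was Cyp2u1, a fatty acid hydroxylase known from brain and thymus. It was measured only there, between 0.24 and 0.69 (median 0.41), with a mean of 0.43 ± 0.16, 1.35-fold above the reference (adjusted p = 0.00246).

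Family 3 consists here of the 3A enzymes, which oxidise steroids, bile acids and a large share of drugs in liver and gut. All 5 members in DMBA-treated tumours and all 4 measured in untreated tumours were below the reference, with medians of -3.97 and -3.60, and every one by more than 8-fold. Among all genes, 31.7% and 32.1% were below it, and 739 of 19087 and 637 of 16887 were at least 8-fold below it. Cyp3a16, a form known from fetal and newborn liver, stood at -4.98, -4.85, -5.01, -4.97 and -4.66 in DMBA-treated tumours and between -3.38 and -2.995 in untreated tumours (median -3.29). The groups did not overlap and were each narrow, at 29.8-fold below the reference (adjusted p = 9.49e-07) and 9.48-fold below it (adjusted p = 1.97e-09). Cyp3a13, a form found in liver and intestine, averaged -4.12 ± 0.28 in DMBA-treated tumours and -4.81 ± 0.28 in untreated tumours. Cyp3a25 averaged -3.97 ± 0.74 in DMBA-treated tumours and -3.94 ± 0.17 in untreated tumours. The wider spread in DMBA-treated tumours belonged mainly to 1 of 2 features, with an SD of 1.26 against 0.32 for the other.

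**Figure D2:**
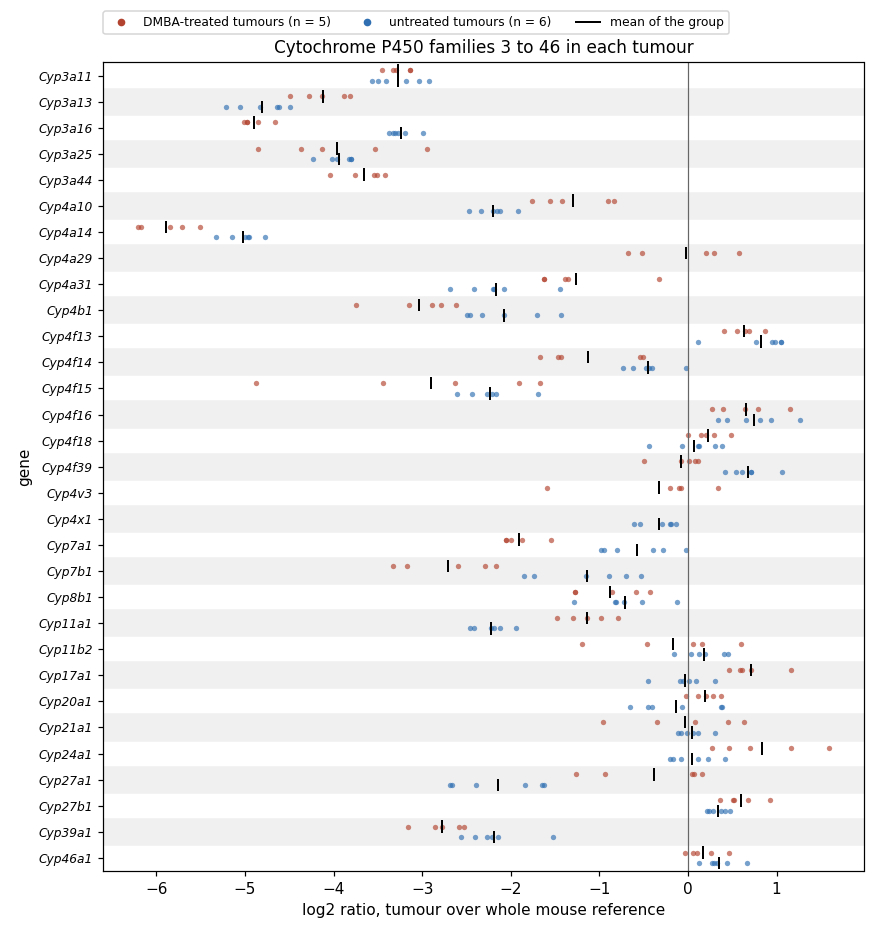
Log2 ratio of tumour over whole mouse reference (horizontal axis) for each gene of families 3 to 46 (vertical axis) in each tumour, drawn as for family 2 with black bars for group means. The 3A genes and Cyp4a14 lie farthest left, and Cyp4f13, Cyp4f16, Cyp27b1 and, in DMBA-treated tumours, Cyp17a1 and Cyp24a1 lie right of 0.

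Family 4 held the lowest member of all and several that were above the reference. In DMBA-treated tumours 6 of 12 were lower and 2 higher, and in untreated tumours 7 of 11 were lower and 3 higher. Of all genes, 31.7% were lower and 26.1% higher in DMBA-treated tumours, and 32.1% lower and 28.8% higher in untreated tumours. The shares of family 4 that were higher, 16.7% and 27.3%, did not exceed those of all genes and are not read as a result. The low end was Cyp4a14, a fatty acid hydroxylase that is a well-known target of the receptor PPAR alpha in liver. It stood at -5.71, -5.50, -6.21, -6.17 and -5.85 in DMBA-treated tumours and between -5.33 and -4.78 in untreated tumours (median -4.99). The values were narrow within each group and did not overlap. These were the lowest means of any member in both groups (the highest, if the ratio were turned), at 59.2-fold below the reference in DMBA-treated tumours (adjusted p = 9.9e-07) and 32.6-fold in untreated tumours (adjusted p = 4.41e-10).

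The 4F enzymes, which hydroxylate leukotrienes and long fatty acids, split in both directions. Cyp4f13 stood at 0.56, 0.69, 0.41, 0.64 and 0.87 in DMBA-treated tumours and between 0.12 and 1.05 in untreated tumours (median 0.97). All 11 tumours were above the reference, 1 untreated tumour lay well below the rest of its group, and the means were 1.55-fold (adjusted p = 0.00185) and 1.76-fold above the reference (adjusted p = 0.000548). Cyp4f16 stood at 0.79, 0.39, 1.15, 0.64 and 0.27 in DMBA-treated tumours and between 0.34 and 1.26 in untreated tumours (median 0.74), 1.57-fold (adjusted p = 0.00821) and 1.67-fold above the reference (adjusted p = 0.000778). It too was above the reference in every tumour, but its 2 features in the DMBA table differed, with means of -0.20 and 1.501.

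Cyp4f39, whose human counterpart makes the very long hydroxylated fatty acids of the skin barrier, stood at 0.01, -0.50, 0.11, 0.08 and -0.08 in DMBA-treated tumours and between 0.42 and 1.06 in untreated tumours (median 0.66). There was no overlap between groups, and the means of -0.08 ± 0.25 (adjusted p = 0.612) and 0.67 ± 0.22 (adjusted p = 0.000311) were less than 1 apart. Cyp4f15 was lower than the reference in every tumour and uneven after DMBA, at -4.87, -1.91, -3.44, -1.68 and -2.64 in DMBA-treated tumours and between -2.61 and -1.70 in untreated tumours (median -2.24). DMBA tumours 1, 3 and 5 lay below every untreated tumour, tumour 2 within their range and tumour 4 just above it.

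The list of 16 enzymes of sterol, bile acid, steroid and vitamin D metabolism also holds Cyp20a1, whose substrate is unknown. Of these 16 genes, 14 were measured in each table. In DMBA-treated tumours 6 were lower and 3 higher, and in untreated tumours 6 were lower and 2 higher, with medians of -0.28 and -0.18. As shares these are 42.9% lower and 21.4% higher in DMBA-treated tumours and 42.9% and 14.3% in untreated tumours, beside 31.7% and 26.1%, and 32.1% and 28.8%, of all genes, so the counts are not read as a result about the list. Bile acid synthesis from cholesterol starts with Cyp7a1, the rate-limiting enzyme in liver. It stood at -2.05, -1.54, -1.87, -2.001 and -2.06 in DMBA-treated tumours and between -0.98 and -0.02 in untreated tumours (median -0.60). Its DMBA features averaged -0.76 and -3.05, the first overlapping with the untreated tumours. Cyp7b1, the oxysterol hydroxylase of the alternative pathway, stood at -2.17, -2.29, -3.17, -2.60 and -3.33 in DMBA-treated tumours and between -1.85 and -0.53 in untreated tumours (median -1.02). By the averaged values both were lower in every DMBA-treated tumour than in any untreated one, and both were below the reference in both groups, with adjusted p of 1.3e-05 and 3.41e-05 in DMBA-treated tumours and of 0.00667 and 0.000507 in untreated tumours.

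Cyp27a1, the mitochondrial enzyme that oxidises the cholesterol side chain, showed the opposite order. It stood at -0.93, 0.04, -1.26, 0.16 and 0.07 in DMBA-treated tumours and between -2.68 and -1.62 in untreated tumours (median -2.12). DMBA tumours 1 and 3 were about 1 log2 unit below the others of their group, yet above every untreated tumour. The mean of -0.39 ± 0.66 in DMBA-treated tumours did not pass the test (adjusted p = 0.217), and the mean of -2.14 ± 0.50 in untreated tumours did (adjusted p = 4.04e-06). Cyp8b1, which sets the balance of bile acid species, was below the reference at -0.89 ± 0.39 in DMBA-treated tumours and -0.71 ± 0.39 in untreated tumours. Cyp39a1, another oxysterol hydroxylase, was lower still, at -2.78 ± 0.25 and -2.19 ± 0.35. Cyp46a1, which clears cholesterol from the brain, averaged 0.17 ± 0.19 in DMBA-treated tumours (adjusted p = 0.234) and 0.35 ± 0.18 in untreated tumours (adjusted p = 0.00902), with overlapping values.

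Steroid hormone synthesis starts with Cyp11a1, which cuts the cholesterol side chain. It stood at -1.14, -0.98, -1.48, -0.79 and -1.30 in DMBA-treated tumours and between -2.46 and -1.94 in untreated tumours (median -2.21). All DMBA-treated tumours were higher by the averaged values, though 1 of the 3 DMBA features overlapped with the untreated tumours, and both means were below the reference (adjusted p = 0.000274 and 4.37e-08). Cyp17a1, needed to make androgens, stood at 0.59, 1.17, 0.71, 0.47 and 0.61 in DMBA-treated tumours and between -0.45 and 0.30 in untreated tumours (median -0.02). The groups did not overlap, the DMBA-treated mean was 1.63-fold above the reference (adjusted p = 0.00279), and the untreated mean of -0.03 ± 0.25 did not pass the test (adjusted p = 0.821). Cyp21a1, a steroid hydroxylase of the adrenal, averaged -0.03 ± 0.64 and 0.04 ± 0.15, and the aldosterone synthase Cyp11b2 -0.17 ± 0.69 and 0.17 ± 0.23, in DMBA-treated and untreated tumours, none of which passed the test. Of 6 measured markers of steroid-producing cells, 3 were below and 2 above the reference in DMBA-treated tumours, and 4 below and 1 above in untreated tumours. Among all genes, 31.7% were below and 26.1% above in DMBA-treated tumours, and 32.1% below and 28.8% above in untreated tumours. The marker counts rest on few genes, and the part of such cells was not tested.

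The enzymes of vitamin D took separate positions. Cyp2r1, which starts its activation in liver, averaged -0.67 ± 0.34 in DMBA-treated tumours (adjusted p = 0.00657) and -0.21 ± 0.35 in untreated tumours (adjusted p = 0.186). Cyp27b1, which makes the active hormone, stood at 0.51, 0.93, 0.51, 0.36 and 0.68 in DMBA-treated tumours and between 0.21 and 0.47 in untreated tumours (median 0.33). All 11 tumours were above the reference, by 1.51-fold (adjusted p = 0.00375) and 1.26-fold (adjusted p = 0.0059) in the mean, and the groups overlapped. Cyp24a1, which breaks the hormone down and is a standard target of its receptor, stood at 0.70, 0.46, 1.16, 0.27 and 1.59 in DMBA-treated tumours and between -0.20 and 0.41 in untreated tumours (median 0.02). Its mean was 1.79-fold above the reference in DMBA-treated tumours (adjusted p = 0.0112) and 0.05 ± 0.24 in untreated tumours (adjusted p = 0.704), with DMBA tumour 4 within the untreated range. The receptor gene Vdr averaged 1.66 ± 0.63 in DMBA-treated tumours (adjusted p = 0.000892) and 0.42 ± 0.13 in untreated tumours (adjusted p = 0.00195). Cyp20a1, whose substrate is unknown, averaged 0.19 ± 0.15 and -0.14 ± 0.44, and neither mean passed the test.

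The groups lie in separate tables from separate array designs, so group and table cannot be told apart and no test was made between them. A gene is called apart here if no value of one group falls within the range of the other and the group means lie 1 log2 unit or more from each other. Of the 59 members in both tables, 5 stood apart with DMBA-treated tumours higher, which is 8.47%, and 7 with them lower, which is 11.9%. Among all 16351 genes in both tables, 3.27% stood apart higher and 5.06% lower. Genes of low ratio in general were more often apart, since among the 2156 genes with means at or below -1 in both groups the shares were 7.61% higher and 9.0% lower, and among the 31 members of that kind 4 were higher and 5 lower. The members higher after DMBA were Cyp2a4, Cyp2a12, Cyp2c39, Cyp11a1 and Cyp27a1, and those lower were Cyp2d26, Cyp2g1, Cyp2j5, Cyp2j9, Cyp3a16, Cyp7a1 and Cyp7b1. Cyp2c39, which hydroxylates retinoic acid, stood at -1.77, -1.51, -1.55, -0.88 and -1.73 in DMBA-treated tumours and between -2.85 and -2.62 in untreated tumours (median -2.71). The other 47 did not stand apart, and 45 of the 59 had means within 1 of each other. The median difference, DMBA-treated minus untreated, was -0.21 over the members and -0.01 over all genes.

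**Figure D3:**
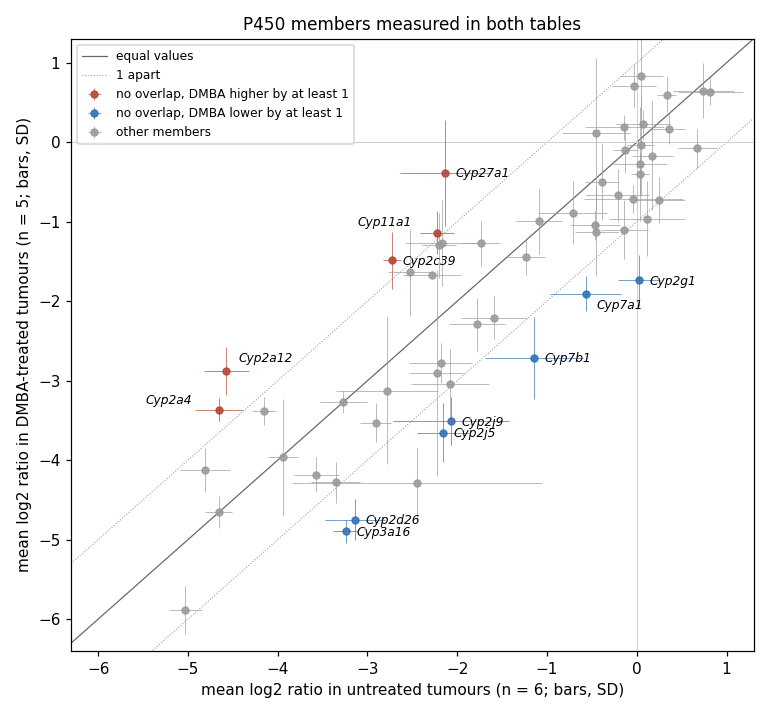
Mean log2 ratio in DMBA-treated tumours (vertical axis, n = 5) and in untreated tumours (horizontal axis, n = 6) for the 59 members in both tables, with SD bars, the line of equal values and dotted lines 1 unit from it. The 5 red points stand apart above the lines and the 7 blue points below them.

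Several of these differences depend on which array feature was read. For DMBA-treated tumours, 26 members had several features, and in 15 of them the feature means were more than 1 apart, up to 3.12 for Cyp2a4. Cyp2a4, Cyp2g1, Cyp7a1 and Cyp11a1 in the DMBA table and Cyp2d26 in the untreated table were split as given above. When every pair of features had to stand apart, a rule chosen after seeing the data, Cyp2a12, Cyp2c39 and Cyp27a1 were left as higher after DMBA, and Cyp2j5, Cyp2j9, Cyp3a16 and Cyp7b1 as lower. The tables hold different features, so even these differences cannot be told apart from a difference between features.

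**Figure D4:**
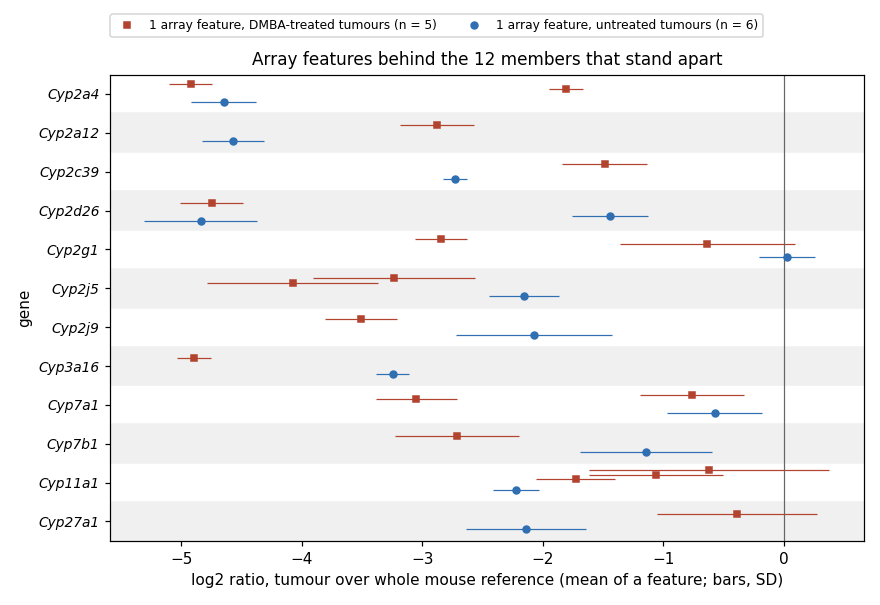
Mean log2 ratio of each array feature (horizontal axis) of the 12 members that stood apart (vertical axis), as red squares for DMBA-treated tumours (n = 5) and blue circles for untreated tumours (n = 6), with SD bars. For Cyp2a4, Cyp2d26 and Cyp7a1 a feature of one table lies close to a feature of the other, while Cyp2a12, Cyp3a16 and Cyp27a1 have a single, separate feature in each.

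Promoter sequences of RefSeq on GRCm38.p6, from 250 bases before to 50 bases after the annotated start, were matched for 52 of the 71 members. Where a gene had several starts (5 members) the first listed was used. The dinucleotide CG, which reads the same on both strands, occurred a median of 2.5 times in these windows, against 7 times over the 27025 promoters of the table, and 44 of the 52 members were below that median. The letters TATAAA, searched on the gene's own strand with the first base 40 to 20 bases before the start, were found in 8 members (15.4%), against 2.22% of all promoters. Only these exact letters were searched, so near variants were not counted. Several of the 8 are 2A genes, and neighbouring copies share promoter sequence, so the 8 are not independent. These 2 motifs share no letters, so they cannot overlap. The 100 bases before the start are printed for 3 members called above the reference in at least 1 group, from CG-poor to CG-rich, and for 3 of the low members that hold TATAAA, with CG and TATAAA in capitals.
Cyp4f13, chr17:32947362-32947461, minus strand: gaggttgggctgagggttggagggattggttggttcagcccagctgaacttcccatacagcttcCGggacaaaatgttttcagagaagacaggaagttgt
Cyp27b1, chr10:127048146-127048245, plus strand: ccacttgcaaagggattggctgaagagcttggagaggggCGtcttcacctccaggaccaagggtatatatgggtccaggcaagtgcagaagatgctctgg
Cyp46a1, chr12:108334216-108334315, plus strand: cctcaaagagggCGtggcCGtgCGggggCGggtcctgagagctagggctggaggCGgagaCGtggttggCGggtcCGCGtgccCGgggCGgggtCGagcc
Cyp2a5, chr7:26835239-26835338, plus strand: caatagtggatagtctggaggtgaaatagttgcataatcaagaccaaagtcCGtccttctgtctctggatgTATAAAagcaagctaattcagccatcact
Cyp2a12, chr7:27028990-27029089, plus strand: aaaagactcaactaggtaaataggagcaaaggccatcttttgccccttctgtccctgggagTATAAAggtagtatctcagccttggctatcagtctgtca
Cyp2e1, chr7:140763719-140763818, plus strand: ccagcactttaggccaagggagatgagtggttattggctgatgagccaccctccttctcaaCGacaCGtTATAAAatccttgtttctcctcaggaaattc

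Cyp46a1 held 31 CG in its 300-base window, the most of any member, and Cyp27b1 held 2. TATAAA began 29 bases before the start in Cyp2a5, 39 before it in Cyp2a12 and 31 before it in Cyp2e1. Members with at least 7 CG had a median log2 ratio of -0.36 in DMBA-treated tumours (8 members) and -0.21 in untreated tumours (7 members). Members with fewer CG had medians of -1.47 (42 members) and -1.59 (39 members). In DMBA-treated tumours, 25.0% of members with at least 7 CG and 64.3% of those with fewer were at or below -1. In untreated tumours the shares were closer, at 42.9% and 56.4%. Over all genes, medians with at least 7 CG and with fewer were 0.004 and -0.068 in DMBA-treated tumours, and 0.019 and -0.023 in untreated tumours. Across members, Spearman's rho of CG count and log2 ratio was 0.41 over 50 members in DMBA-treated tumours and 0.27 over 46 in untreated tumours, and over all genes with a promoter it was 0.07 and 0.05. These members share arrays, and neighbouring copies share promoter sequence, so rho is a description only. Exceptions stood at both ends: Cyp2s1 held 17 CG and was far below the reference in both groups, while Cyp4f16 and Cyp27b1 held 2 each and were above it.

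**Figure D5:**
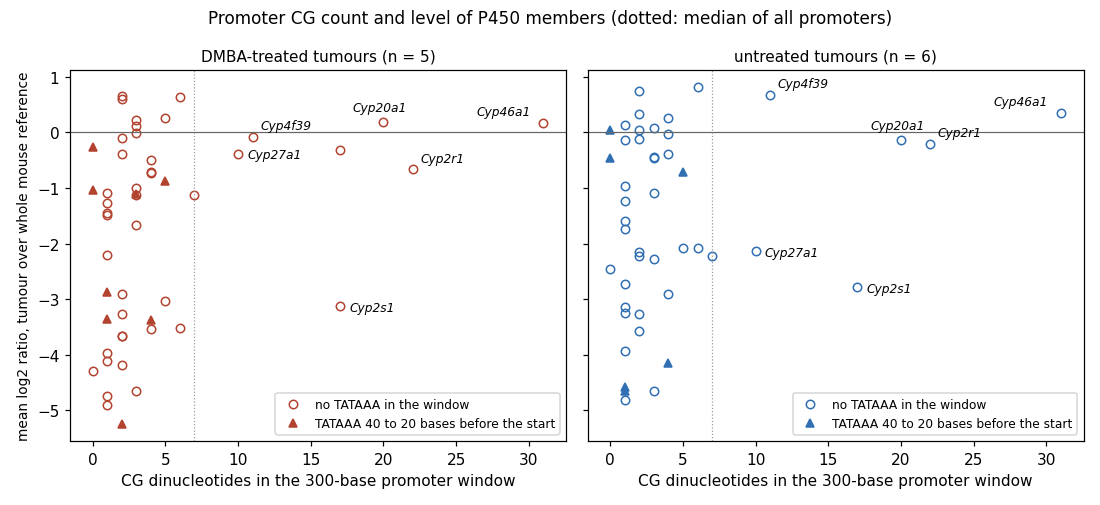
CG dinucleotides in the 300-base promoter window (horizontal axis) and mean log2 ratio (vertical axis) of each member with a promoter, for DMBA-treated tumours (left, n = 5) and untreated tumours (right, n = 6); triangles mark members with TATAAA 40 to 20 bases before the start, and the dotted line is the median of all promoters, 7. Members right of the line lie mostly between -1 and 1, apart from Cyp2s1 in both groups and Cyp27a1 in untreated tumours, and Cyp11a1, on the line with 7 CG, lies at -1.14 in DMBA-treated tumours and -2.22 in untreated tumours.

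P450 enzymes of the endoplasmic reticulum receive electrons from a reductase and from cytochrome b5, and those of mitochondria from ferredoxin. Of 8 measured electron donors and helpers, 2 were lower and 1 higher in DMBA-treated tumours, and 1 was lower and 3 higher in untreated tumours, with medians of 0.01 and 0.04. Those shares, 25.0% lower and 12.5% higher, and 12.5% and 37.5%, rest on few genes and are not read as a result beside those of all genes. Cyb5a, the cytochrome b5 gene, was below the reference at -1.69 ± 0.40 in DMBA-treated tumours and -1.10 ± 0.51 in untreated tumours. Haem, their cofactor, is built in a short pathway. Of 12 measured genes of haem synthesis and breakdown, 8 were lower and 0 higher in DMBA-treated tumours, and 9 were lower and 1 higher in untreated tumours. The shares lower, 66.7% and 75.0%, stand beside 31.7% and 32.1% of all genes. The higher one was Blvra, a gene of haem breakdown, at 0.52 ± 0.18 in untreated tumours (adjusted p = 0.000943). In DMBA-treated tumours Blvra was at 0.10 ± 0.37 (adjusted p = 0.597). Fech, which inserts the iron, was at -1.90 ± 0.07 in DMBA-treated tumours and -1.70 ± 0.44 in untreated tumours, and Alas2, the red-cell form of the first enzyme, at -2.36 ± 0.38 and -2.72 ± 0.83.

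Nuclear receptors and liver factors switch these families on in liver and gut. Of 18 measured regulators, 13 were lower and 4 higher in DMBA-treated tumours, and 9 were lower and 5 higher in untreated tumours. Of all genes, 31.7% were lower and 26.1% higher in DMBA-treated tumours, and 32.1% lower and 28.8% higher in untreated tumours. The regulator counts rest on few genes, and their shares higher, 22.2% and 27.8%, are not read as a result. The lowest regulator was Rxrg, a retinoid X receptor, at -5.02 ± 0.33 in DMBA-treated tumours and -4.28 ± 0.95 in untreated tumours. Next was Foxa2, a liver and gut factor, at -4.66 ± 0.37 and -3.81 ± 0.26. The highest in DMBA-treated tumours was Esr1, the oestrogen receptor, at 2.98 ± 0.51, against 0.29 ± 0.16 in untreated tumours, averaged over 11 features in the DMBA table and read by 1 in the untreated table. Rxrb, a common receptor partner and the highest in untreated tumours, was at 0.54 ± 0.17 in DMBA-treated tumours and 0.54 ± 0.53 in untreated tumours. Downstream, epoxides are cleared by hydrolases. Ephx1, the microsomal form, was above the reference by 1.36 ± 0.18 log2 units in DMBA-treated tumours (adjusted p = 4.96e-05). In untreated tumours Ephx1 was above it by 1.51 ± 0.30 (adjusted p = 3.82e-06). Its list joins epoxide hydrolases with other enzymes of arachidonic acid. Of the 10 measured genes of that mixed list, 8 were lower in DMBA-treated tumours and 5 in untreated tumours, beside 31.7% and 32.1% of all genes. Of the P450 enzymes whose symbols do not begin with Cyp, the prostacyclin synthase Ptgis was at -2.84 ± 0.30 in DMBA-treated tumours and -3.09 ± 0.18 in untreated tumours, both below the reference, and the thromboxane synthase Tbxas1 averaged 0.09 ± 0.24 and 0.10 ± 0.30, neither of which passed the test.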

How the data were processed

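Log2 ratios of 11 two-colour arrays were used as deposited by the authors, in a table of 45220 features (5 DMBA-treated tumours) and another of 22575 features (6 untreated tumours). Scanner, background correction and normalization are not given in the sources used here. No label states a log base. It was taken as 2, since values from -10.70 to 8.37 would be too wide for log10 of a scanner ratio. Array medians lay between -0.013 and 0.008, and no value was missing. Features were named by platform symbols, and the features of a gene were averaged per array (19087 and 16887 genes). For each table alone, limma 3.58.1 (R 4.3.3) tested the mean ratio against 0 (intercept-only lmFit, eBayes, two-sided, Benjamini-Hochberg over all genes, called at an adjusted p under 0.05). The fit was tested on simulated data with independent noise, which cannot show what the shared reference, related tumours or dim features do to it. A fold is 2 raised to the size of the mean log2 ratio.

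The members and gene lists were chosen with earlier results of these data known. Genes named are those called above the reference, the 8 lowest called in each group, the listed sterol, steroid, bile acid and vitamin D enzymes, those that stood apart, and the 4 with the largest SD in each group, 40 in all, with at most the 2 highest and 2 lowest called of each other list. Tbxas1 was named after its values were seen. Cyp11b1, Cyp19a1, Por and Fdxr were not analysed here. Alternatives covered the summary of features, centring, quantile normalization, zeros, a 1.5-fold threshold, symbol pattern and single tumours.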

Additional observations from a re-analysis of the deposited data

Results flagged for a closer look

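In 5 of 76 sets of values (a named member in a group of tumours), 1 tumour stood far from the others of its group by Dixon's criterion. Chance alone flags about 1 in 20 sets that were not picked by their values. Some members were named for a large SD or for standing apart, so the count is not compared with that rate. Cyp2s1 was highest in DMBA tumour 5, at -1.53. Cyp2c29 was highest in untreated tumour 4, at -3.09. Cyp2g1 was highest in untreated tumour 5, at 0.49. Cyp2j9 was highest in untreated tumour 6, at -0.82. Cyp4f13 was lowest in untreated tumour 3, at 0.12. These are 4 different untreated tumours and 1 DMBA-treated tumour, and no tumour was named by more than 1 gene.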

How the results depend on the processing

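Centring, quantile normalization, removal of exact zeros, the median of features and DMBA tumours 3 and 4 as 1 tumour left the counts of called members at 5 higher and 45 to 47 lower in DMBA-treated tumours and, where they apply, at 6 and 41 in untreated tumours. With each tumour left out in turn, counts were 5 higher and 45 to 48 lower in DMBA-treated tumours, 6 to 7 higher and 40 to 41 lower in untreated tumours, and 5 to 6 apart higher and 7 to 10 apart lower after DMBA. The shares of all genes apart were then 3.27% to 3.55% higher and 5.06% to 5.72% lower. Genes with a single feature alone gave 3 higher and 26 lower of 41 members in DMBA-treated tumours, with fewer genes tested by construction. Of 35 members with a single feature in each table, 3 stood apart higher and 3 lower. Beside them, 2.55% and 5.15% of all such genes did, and the member counts rest on few genes. Against a ratio of 1.5-fold (limma's treat) 37 members in DMBA-treated tumours and 33 in untreated tumours were still lower, while 0 were higher in either group, and 0 at an unadjusted p under 0.05, so every call above the reference was lost. With means at least 0.5 apart, 10 members stood apart higher and 14 lower after DMBA, and with 2 apart 0 and 0. The median of features gave 4 apart higher and 7 lower after DMBA, beside 3.33% and 4.94% of all genes. Quantile normalization of all arrays together gave 7 and 7, where the shares over all genes were 3.85% higher and 3.99% lower. Every pair of features apart, chosen after seeing the data, gave 3 and 4. Symbols with a second letter or a closing letter gave 5 higher and 49 lower of 70 members in DMBA-treated tumours, and 6 and 43 of 66 in untreated tumours. The mean of no called named member changed direction under any setting above. No paired analysis was possible because the tumours of the groups are different samples whose numbers follow accession order. No value of signal over background was used here, so what dimness does to the lowest ratios is unknown.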
